A study of Mus musculus with 6 samples.

Results

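The serpins are a superfamily of proteins, most of which trap and inactivate proteases, and the liver makes most of those that circulate in blood. They were read here in the livers of mice fed a high-fat diet and dosed with atractylodin or with vehicle. Every row whose gene symbol began with Serpin was taken, except 1 row with a pseudogene suffix, which left 62 serpin genes of 23282 rows in all. Of these, 30 had enough counts to be tested, and 32 did not. The choice was made on names alone. The GENCODE M21 annotation types Serpina3h (tested) and Serpinb10 (not tested) as pseudogenes, and both were kept.

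The study asked how atractylodin, a compound from Atractylodes rhizomes, acts on fatty liver brought on by diet. Male C57BL/6N mice (the sample labels give the strain as C57BL/6), 8 weeks old at the start, ate the diet for 12 weeks. From week 8 onward they received either vehicle or 10 mg/kg atractylodin by mouth, 5 days a week for 4 weeks. All 6 libraries therefore come from livers on the high-fat diet, 3 with vehicle and 3 with atractylodin, and no mice on a control diet were analysed here.

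A serpin presents an exposed reactive centre loop as bait. When a protease cuts the loop, the serpin changes shape and holds the enzyme in an inactive complex, so the loop sequence sets which protease is caught. Some members have lost this activity and carry hormones or help fold collagen instead. Mice have several tandem copies where humans have a single gene for alpha-1-antitrypsin (Serpina1) and for alpha-1-antichymotrypsin (Serpina3).

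The 6 libraries held between 1831461 counts (vehicle 1) and 12565393 counts (atractylodin 3), and the other 4 held 9871762 to 12111553. Levels are given as CPM, the count scaled to a common library size (with TMM scaling, which sets libraries level on the bulk of genes). The kit counts the 3′ end of each transcript, so CPM is not divided by transcript length, and levels of different genes can be set side by side with that in mind. A total of 3 counts was worth 1.64 CPM in vehicle 1 and 0.239 to 0.304 CPM in the others, so weakly expressed members were read least well in vehicle 1. Most hepatocyte markers were abundant in every library, with albumin (Alb) at 47792 to 55869 CPM, but Ass1 was at only 4.28 to 7.87 CPM. None of the 7 tested was called. The labels number the libraries without saying whether each is a separate mouse, and p-values then measure only how libraries of a group vary.

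Atractylodin went with a lower level of 2 serpins, Serpinb1a and Serpinf2, and with a higher level of none, at an adjusted p under 0.05 in edgeR's quasi-likelihood test. The other 28 tested serpins did not pass. That is 6.67% of the tested members, beside 7.25% of all 12505 genes tested (3.33% lower and 3.92% higher), so the share of serpins called was close to the background. When libraries were scaled by total counts alone, all genes split into 312 higher and 707 lower calls, against 490 and 416 with TMM scaling, and the serpin calls became 1 higher and 4 lower. At an unadjusted p under 0.05 there were 8 serpins (26.7%, beside 21.5% of all genes), of which 6 were lower and 2 higher. The 3 atractylodin libraries lay wholly outside the vehicle range for 7 serpins (23.3%, beside 26.2% of all genes), 5 of them below and 2 above. The median log2 fold change was -0.10 over the tested serpins (range -1.74 to 0.96) and -0.0015 over all genes tested. In whole liver, fewer cells of a type and less RNA per cell cannot be told apart.

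**Figure D1:**
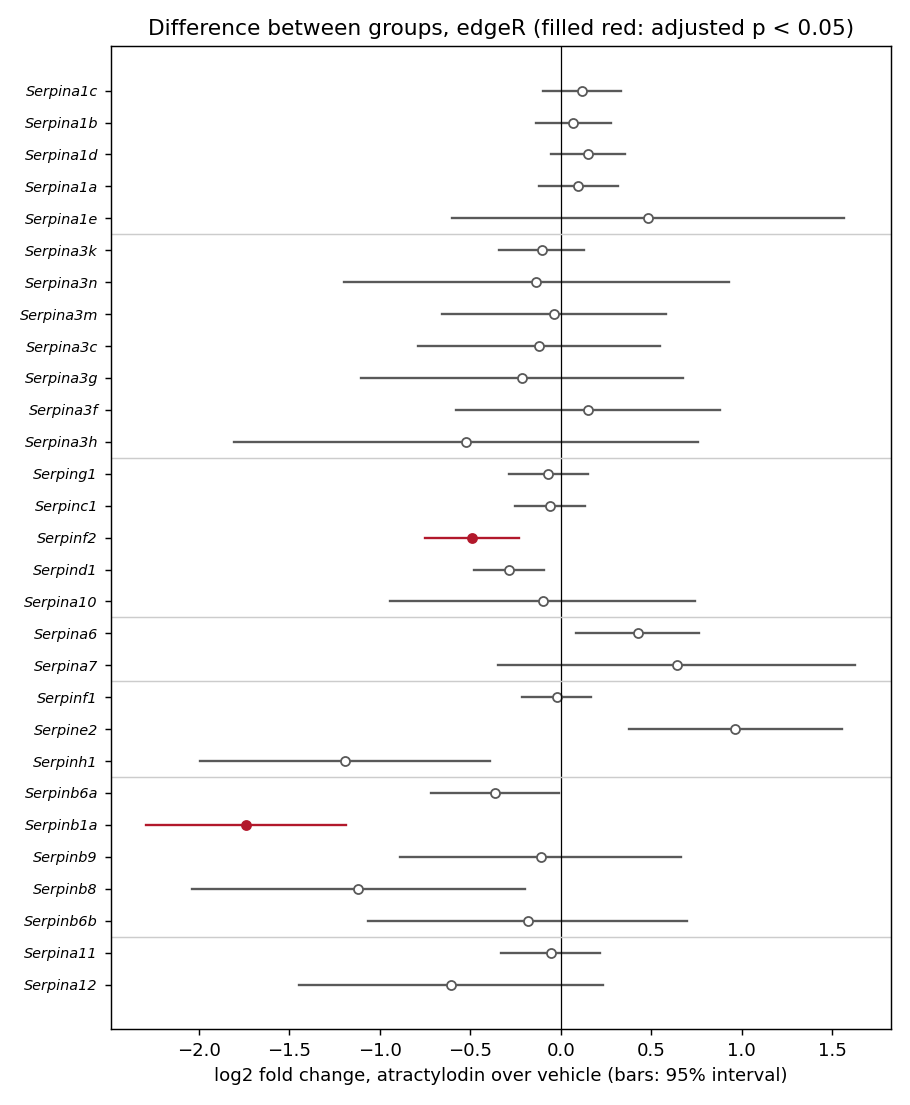
Log2 fold change, atractylodin over vehicle, of the tested serpins with its 95% interval (horizontal axis), filled red where the adjusted p was under 0.05. Serpinb1a stands lowest at -1.74 and Serpine2 highest at 0.96, and Serpina1a to Serpina1d sit near 0, with Serpina1e at 0.48.

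The antitrypsins were the largest group by amount, with 72.1 to 78.4% of all serpin counts in each library. Alpha-1-antitrypsin is the main circulating inhibitor of neutrophil elastase. The mouse copies Serpina1a to Serpina1e lie side by side on chromosome 12 and are known to differ in the reactive centre loop. The loop's coding bases are printed below from the transcripts of GENCODE M21 (GRCm38), from the first codon of the conserved hinge to the codon before the conserved motif that ends the loop, 75 bases in each copy. They are shown because the loop is where the copies' targets are set, and capitals mark the 18 positions at which at least 1 copy differs.
Serpina1a: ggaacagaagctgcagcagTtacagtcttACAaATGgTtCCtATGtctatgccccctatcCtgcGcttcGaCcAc
Serpina1b: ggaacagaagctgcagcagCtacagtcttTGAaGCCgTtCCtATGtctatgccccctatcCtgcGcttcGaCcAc
Serpina1c: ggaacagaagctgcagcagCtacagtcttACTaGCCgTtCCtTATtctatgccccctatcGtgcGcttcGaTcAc
Serpina1d: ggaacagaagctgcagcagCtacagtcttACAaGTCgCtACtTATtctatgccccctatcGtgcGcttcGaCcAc
Serpina1e: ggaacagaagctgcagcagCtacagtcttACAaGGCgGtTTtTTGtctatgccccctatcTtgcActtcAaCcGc

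The 3′ ends, where the kit places its reads, are much alike. Over the last 400 bases of the longest coding transcript, pairs of Serpina1 copies were 93.3 to 96.5% identical. Of all 50-base windows in that stretch, 18.8% (Serpina1e) to 53.3% (Serpina1d) occurred unchanged in another copy. How reads that match several copies were assigned is not given in the sources used here, so the values of single copies are uncertain and the sum over copies is the firmer value.

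Summed, the Serpina1 copies stood at 31967, 27064 and 31675 CPM in vehicle libraries 1, 2 and 3 and at 33477, 34478 and 31291 CPM in atractylodin libraries 1, 2 and 3. The groups overlapped. The means were 30235 ± 2751 and 33082 ± 1630 CPM (SD, n = 3 each), and the log2 fold change was 0.13 ± 0.10 (SE, 95% interval -0.08 to 0.34, edgeR adjusted p = 0.506).

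Each copy alone had an estimate on the higher side, with a median log2 fold change of 0.12 over the 5 tested, and none passed the test. Serpina1c, the most abundant copy, was at 12711, 10327 and 12605 CPM with vehicle and at 12728, 12808 and 13102 CPM with atractylodin. All its atractylodin libraries were above all its vehicle libraries, atractylodin 1 and vehicle 1 being nearly level, and the log2 fold change was 0.12 ± 0.10 (edgeR adjusted p = 0.564). Serpina1b stood at 7184, 6555 and 7228 CPM with vehicle and 7803, 7423 and 6785 CPM with atractylodin (edgeR adjusted p = 0.735). This copy's estimate of 0.07 turned to -0.0104 when libraries were scaled by total counts. Serpina1d stood at 6652, 6161 and 7063 CPM against 7567, 7672 and 6809 CPM (edgeR adjusted p = 0.410). For Serpina1a the levels were 3602, 2895 and 3546 CPM with vehicle and 3624, 3733 and 3370 CPM with atractylodin (edgeR adjusted p = 0.649). In these 3 copies the groups overlapped.

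Serpina1e was the copy that varied most. It was at 1818, 1125 and 1234 CPM with vehicle and at 1755, 2842 and 1225 CPM with atractylodin, so atractylodin 2 alone was above all the others and atractylodin 3 was within the vehicle range. The log2 fold change was 0.48 ± 0.40 (95% interval -0.60 to 1.57, edgeR adjusted p = 0.583). Its share of the summed Serpina1 counts was 3.89 to 5.69% in 5 libraries and 8.24% in atractylodin 2. The other 4 copies held steadier shares over the 6 libraries: 37.1 to 41.9% for Serpina1c, 21.5 to 24.2% for Serpina1b, 20.8 to 22.8% for Serpina1d and 10.7 to 11.3% for Serpina1a. A further member of this group, Serpina1f, had 5 counts over all libraries and was not tested.

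**Figure D2:**
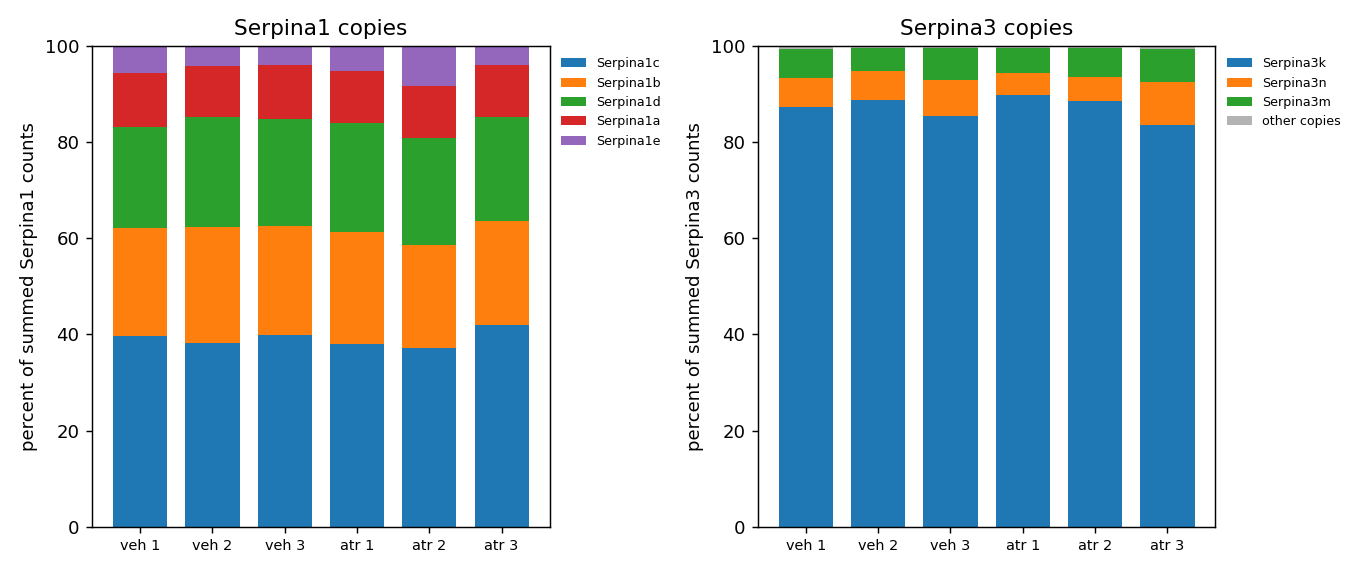
Share of each copy (percent of the summed counts, vertical axis) within the Serpina1 and Serpina3 families in each vehicle (veh) and atractylodin (atr) library. Serpina1e is widest in atractylodin 2 at 8.24%, and Serpina3n in atractylodin 3 at 8.88%.

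The start regions of the Serpina1 copies are printed next because all 5 copies hold the same motif there. Each window runs from 100 bases before to 20 bases after the start site, from RefSeq on GRCm38.p6, minus strand of chromosome 12. Capitals mark GTTAAT, a motif bound by HNF1, a hepatocyte transcription factor. The windows lie at chr12:103738170-103738289 (Serpina1b), chr12:103773614-103773733 (Serpina1d), chr12:103863600-103863719 (Serpina1a), chr12:103904931-103905050 (Serpina1c) and chr12:103956878-103956997 (Serpina1e).
Serpina1b: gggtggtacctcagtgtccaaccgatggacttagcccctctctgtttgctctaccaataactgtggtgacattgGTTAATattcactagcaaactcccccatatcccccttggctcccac
Serpina1d: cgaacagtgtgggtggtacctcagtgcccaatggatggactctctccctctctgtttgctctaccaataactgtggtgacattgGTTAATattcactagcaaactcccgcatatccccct
Serpina1a: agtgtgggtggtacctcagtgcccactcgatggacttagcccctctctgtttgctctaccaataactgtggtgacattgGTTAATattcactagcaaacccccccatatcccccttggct
Serpina1c: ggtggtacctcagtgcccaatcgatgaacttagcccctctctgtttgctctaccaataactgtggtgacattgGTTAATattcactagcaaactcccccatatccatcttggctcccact
Serpina1e: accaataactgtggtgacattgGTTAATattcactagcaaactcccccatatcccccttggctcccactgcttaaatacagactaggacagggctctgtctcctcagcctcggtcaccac

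The motif lies in the same stretch of sequence in all 5, but it begins 16 to 27 bases before the annotated start in copies a to d and 78 bases before it in Serpina1e, whose annotated start is farther downstream. Over the full 300-base entries (250 before to 50 after the start), copies a to d were 85.2 to 91.4% identical to each other and 63.9 to 69.3% identical to Serpina1e. Entries were aligned from end to end, and that of Serpina1e is cut farther downstream, so part of it has no counterpart in the other entries. Its lower values therefore do not measure how far its start sequence differs. RefSeq entries were found for 22 of the 30 tested serpins, 26 entries in all, and 3 motifs were searched on both strands. GTTAAT occurred in 9 of the 26 (34.6%), beside 7.1% of all 32851 entries. TTGCNNAA, a form bound by C/EBP factors, occurred in 10 (38.5%, beside 10.8%). TTCNNNGAA, a form bound by STAT factors, occurred in 6 (23.1%, beside 8.3%). Copies of a gene share their start sequence, so the 26 entries are not independent, and a match in a window is a description of its letters.

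The antichymotrypsin-like group held 13.4 to 18.4% of serpin counts. Human alpha-1-antichymotrypsin inhibits cathepsin G and chymases and rises in inflammation, and the mouse Serpina3 copies have diverged in the loop more than the Serpina1 copies. The loops of the 3 most abundant copies are shown from the same transcripts to make this visible, with capitals after the 23 bases that open all of them.
Serpina3k: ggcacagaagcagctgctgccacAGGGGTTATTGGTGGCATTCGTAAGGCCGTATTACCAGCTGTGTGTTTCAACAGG
Serpina3m: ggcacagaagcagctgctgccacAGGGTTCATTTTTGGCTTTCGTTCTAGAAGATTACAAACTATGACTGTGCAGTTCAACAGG
Serpina3n: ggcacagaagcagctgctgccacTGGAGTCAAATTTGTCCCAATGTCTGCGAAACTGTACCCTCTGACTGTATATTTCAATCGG

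The last 400 bases of the Serpina3 copies compared were 42.4 to 82.9% identical, and 0.0 to 1.4% of 50-base windows were shared. By sequence, the 3′ ends of these copies are thus told apart better than those of Serpina1. In GENCODE M21, however, the Serpina3m gene spans Serpina3k on the same strand, and Serpina1b spans Serpina1d. How the counting treated such overlaps was not tested. None of the 7 tested members was called, and 6 of the 7 estimates were lower (median -0.12). Summed over copies, Serpina3 was at 8159, 6335 and 6398 CPM with vehicle and at 6332, 5874 and 7220 CPM with atractylodin. Vehicle 1 was the highest library and the groups overlapped (log2 fold change -0.10 ± 0.12, 95% interval -0.35 to 0.14, edgeR adjusted p = 0.653). Without vehicle 1 the log2 fold change was 0.0266.

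Serpina3k supplied 83.6 to 89.8% of the Serpina3 counts. Its product is known as contrapsin, an inhibitor of trypsin-like proteases. It stood at 7119, 5623 and 5467 CPM with vehicle and 5684, 5201 and 6038 CPM with atractylodin (log2 fold change -0.11 ± 0.11, edgeR adjusted p = 0.636). Serpina3m stood at 497, 301 and 426 CPM against 332, 355 and 499 CPM (edgeR adjusted p = 0.948). In both the groups overlapped.

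Serpina3n, the copy best known as an acute phase protein, split the atractylodin libraries. It was at 496, 383 and 473 CPM with vehicle, at 293 and 294 CPM in atractylodin 1 and 2, and at 641 CPM in atractylodin 3. Atractylodin 1 and 2 were thus below every vehicle library and atractylodin 3 above every one. With all libraries the log2 fold change was -0.14 ± 0.39 (95% interval -1.20 to 0.93, edgeR adjusted p = 0.885). Without atractylodin 3 it was -0.61 (edgeR adjusted p = 0.00352), the only 1 of 16 other settings to call it. That fit drops the library that went the other way, so its small p follows in part from the choice. Serpina3c, at 36.6, 18.9 and 22.3 CPM against 17.2, 18.9 and 29.9 CPM, did not pass (edgeR adjusted p = 0.862). The remaining 3, Serpina3f, Serpina3g and Serpina3h, had 0.522 to 6.46 CPM in any library and edgeR adjusted p of 0.850, 0.820 and 0.676.

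The inhibitors of clotting, fibrinolysis and complement made up 7.05 to 8.49% of serpin counts. Of the 5 described here, 1 was lower, 4 did not pass, and all 5 estimates were on the lower side (median -0.10). Serpinf2, alpha-2-antiplasmin, is the main plasma inhibitor of plasmin, the enzyme that dissolves fibrin. Its gene lies on chromosome 11 from 75431732 to 75439591 (GRCm38).

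Serpinf2 was at 563, 381 and 490 CPM with vehicle and at 316, 353 and 348 CPM with atractylodin. Every atractylodin library was below every vehicle library, and vehicle 1 was the highest. The mean went from 478 ± 91.3 to 339 ± 20.1 CPM (SD, n = 3 each), a 1.40-fold lower level (log2 fold change -0.49 ± 0.12, 95% interval -0.75 to -0.23, edgeR adjusted p = 0.0230). The call held in all 10 other settings but was lost on leaving out any library except vehicle 2. The edgeR adjusted p was then 0.123 (without vehicle 1), 0.103 (vehicle 3), 0.0779 (atractylodin 1), 0.0507 (atractylodin 2) and 0.0507 (atractylodin 3), and the log2 fold change ran from -0.63 to -0.36.

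Serpind1, heparin cofactor II, inhibits thrombin. It stood at 333, 309 and 355 CPM with vehicle and at 287, 272 and 259 CPM with atractylodin, again without overlap. The estimate was -0.28 ± 0.09 (edgeR unadjusted p = 0.00632, adjusted p = 0.0704), short of the threshold. With total-count scaling the adjusted p was 0.0228, but none of the 6 fits that each left out a library called Serpind1. Serpinc1, antithrombin, the main inhibitor of thrombin and factor Xa, was at 1239, 1164 and 1226 CPM against 1123, 1224 and 1137 CPM. These groups overlapped (log2 fold change -0.06 ± 0.09, 95% interval -0.25 to 0.13, edgeR adjusted p = 0.769).

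Serping1, the C1 inhibitor that restrains complement and the contact system, was at 1439, 1139 and 1303 CPM with vehicle and 1256, 1124 and 1318 CPM with atractylodin (log2 fold change -0.07 ± 0.10, 95% interval -0.29 to 0.15, edgeR adjusted p = 0.766). Its groups overlapped. Serpina10, the protein Z-dependent inhibitor of factor Xa, was at 177, 144 and 171 CPM with vehicle and at 110, 124 and 222 CPM with atractylodin. Like Serpina3n it was below the vehicle range in atractylodin 1 and 2 and above it in atractylodin 3. The log2 fold change was -0.10 ± 0.32 (edgeR adjusted p = 0.893) with all libraries and -0.48 (edgeR adjusted p = 0.0156) without atractylodin 3. Again this was the only 1 of 16 other settings to call it, and it drops the library that went the other way. Serpina5, a further member of this group, was not tested.

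**Figure D3:**
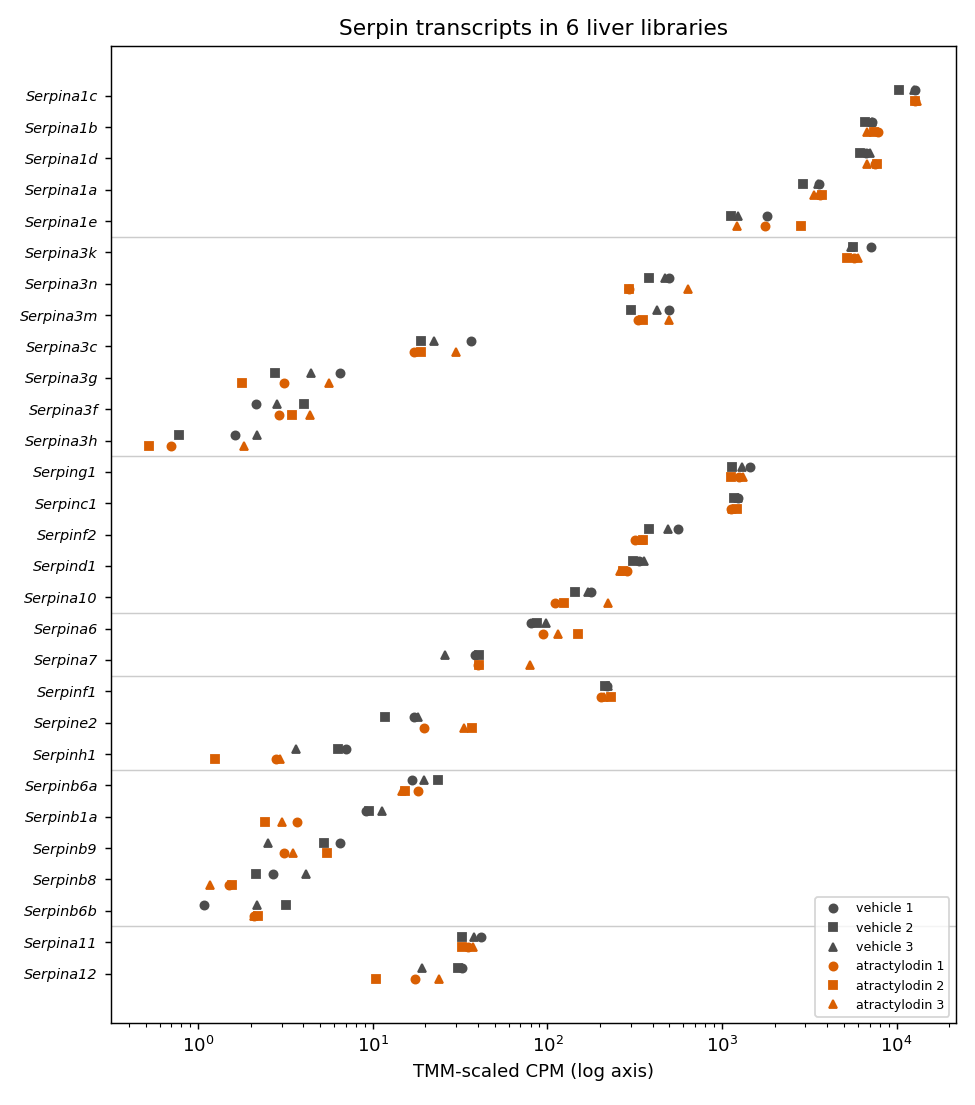
CPM of the tested serpins (horizontal axis, log scale) in each library, vehicle and atractylodin in separate colours. Levels span from under 1 CPM for Serpina3h to the Serpina1c maximum of 13102 CPM, and for most members the colours overlap.

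The 2 hormone carriers are serpins without protease inhibition. Serpina6, corticosteroid-binding globulin (chromosome 12, 103646630 to 103657212, GRCm38), was at 80.2, 86.9 and 97.7 CPM with vehicle and at 94.9, 150 and 115 CPM with atractylodin. Atractylodin 1 lay within the vehicle range and the other 2 above it. The mean was 88.3 ± 8.85 against 120 ± 27.7 CPM, and the log2 fold change of 0.43 ± 0.15 did not pass (edgeR adjusted p = 0.138). Without atractylodin 1 it did (edgeR adjusted p = 0.0077), the only 1 of 6 fits leaving out a library to call it. Over those 6 fits the log2 fold change ran from 0.24 to 0.57.

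Serpina7, thyroxine-binding globulin on chromosome X, was at 38.2, 40.6 and 25.9 CPM with vehicle and at 39.96, 40.7 and 79.2 CPM with atractylodin. Atractylodin 3 alone was well above the rest (log2 fold change 0.64 ± 0.38, 95% interval -0.34 to 1.63, edgeR adjusted p = 0.421). Of 9 tested genes for other hormone carriers, hormone receptors, and enzymes and response genes of these hormones, 1 rose (beside 3.92% of all genes). This was the retinol carrier Rbp4, from 4807, 5382 and 5193 CPM to 6900, 7194 and 6224 CPM (log2 fold change 0.40, edgeR adjusted p = 0.0174). That call was lost without vehicle 1, vehicle 3 or atractylodin 2 (edgeR adjusted p up to 0.113), and with total-count scaling the list had no gene higher and 1 lower. The list's median was -0.10, and its most abundant gene, Alb, did not pass (edgeR adjusted p = 0.804).

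Among the serpins of matrix, cell surface and protein folding, Serpine2 and Serpinh1 had opposite estimates. Serpine2, protease nexin-1, inhibits thrombin and the plasminogen activators at cell surfaces and lies on chromosome 1 from 79794197 to 79861180 (GRCm38). It was at 17.2, 11.8 and 18.0 CPM with vehicle and at 19.5, 36.96 and 33.3 CPM with atractylodin. The groups were apart, though atractylodin 1 was close to vehicle 3. The mean was 15.7 ± 3.41 against 29.9 ± 9.20 CPM (log2 fold change 0.96 ± 0.26, 95% interval 0.38 to 1.55). The edgeR adjusted p of 0.0577 just missed the threshold, and 8 of 16 other settings placed it below, among them DESeq2 (adjusted p = 0.0039) and edgeR without atractylodin 1 (adjusted p = 0.0005). Of the 6 edgeR fits that each left out a library, only that 1 called it. Their log2 fold changes ran from 0.76 to 1.20.

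Serpinh1, or HSP47, is not an inhibitor but the endoplasmic reticulum chaperone of collagens (chromosome 7, 99345376 to 99353239, GRCm38). It was at 6.998, 6.35 and 3.64 CPM with vehicle and 2.79, 1.25 and 2.92 CPM with atractylodin. The groups did not overlap, and the mean was 5.66 ± 1.78 against 2.32 ± 0.928 CPM. The log2 fold change was -1.19 ± 0.38 (edgeR adjusted p = 0.0657), short of the threshold, and the adjusted p was 0.0441 with total-count scaling. None of the 6 fits that each left out a library called Serpinh1.

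The collagens and collagen-processing genes are Serpinh1's clients and partners. Of 20 tested, 5 fell and none rose, 17 of the 20 estimates were lower, and the median was -0.85, beside 3.33% of all genes called lower. Sparc, a collagen-binding matrix protein, was at 74.3, 96.2 and 72.0 CPM with vehicle and 51.5, 41.7 and 43.5 CPM with atractylodin (log2 fold change -0.84, edgeR adjusted p = 0.000706). Pcolce, which speeds the trimming of procollagen, fell from 8.07, 7.64 and 7.03 CPM to 1.79, 3.03 and 2.59 CPM (log2 fold change -1.59, edgeR adjusted p = 0.00317). Both calls held on leaving out each library in turn. Col5a1 (-1.26, edgeR adjusted p = 0.00697) was lost without vehicle 2 (edgeR adjusted p = 0.0904). Col4a2 (-0.78, edgeR adjusted p = 0.0204) was lost without vehicle 2, atractylodin 1 or atractylodin 2 (edgeR adjusted p up to 0.177), and P4hb (-0.41, edgeR adjusted p = 0.0187) without vehicle 1, vehicle 3 or atractylodin 2 (edgeR adjusted p up to 0.0984). P4hb, a subunit of the enzyme that hydroxylates collagen and the most abundant gene of the list, was at 688, 656 and 679 CPM against 507, 447 and 573 CPM. The listed genes for that enzyme's other subunit, P4ha1 (0.59, edgeR adjusted p = 0.150) and P4ha2 (0.23, edgeR adjusted p = 0.680), had higher estimates and did not pass.

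Markers of hepatic stellate cells and fibroblasts, cells that make collagen, summed to 406 to 551 CPM with vehicle and 313 to 423 CPM with atractylodin. Of 12 tested, none was called, 11 had lower estimates, and the median was -0.41, but 3 of the markers (Col1a1, Col1a2 and Col3a1) are also in the collagen list. Cholangiocyte markers summed to 41.6 to 51.7 CPM against 21.7 to 28.0 CPM. Of the 6 listed, 3 were tested and 2 of these (Spp1 and Sox9) fell. The third, Epcam, was at 0 to 2.49 CPM with an estimate near 0 (log2 fold change 0.05, edgeR adjusted p = 0.969). The part of either marker list in the serpin and collagen values was not tested. The remaining member of the group, Serpinf1 (PEDF, a secreted anti-angiogenic serpin without protease inhibition), was at 218, 212 and 223 CPM against 203, 231 and 210 CPM (log2 fold change -0.02 ± 0.09, 95% interval -0.21 to 0.17, edgeR adjusted p = 0.911).

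Clade B serpins lack a classical signal peptide and act mostly inside cells, where they guard against the cell's own granule and lysosomal proteases. This was the largest group by number, 27 genes in clusters on chromosomes 1 and 13, but only 5 had enough counts to be tested. All 5 estimates were lower (median -0.36), and 1 was called. Serpinb1a, an inhibitor of neutrophil elastase, cathepsin G and proteinase 3, lies on chromosome 13 from 32842092 to 32851185 (GRCm38).

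Serpinb1a was at 9.15, 9.53 and 11.3 CPM with vehicle and at 3.69, 2.40 and 3.01 CPM with atractylodin. Every atractylodin library was well below every vehicle library. The mean went from 10.0 ± 1.16 to 3.03 ± 0.643 CPM (SD, n = 3 each), a 3.34-fold lower level (log2 fold change -1.74 ± 0.26, 95% interval -2.29 to -1.19, edgeR adjusted p = 0.000617). It was called in all 16 other settings, and leaving out each library in turn gave log2 fold changes of -1.89 to -1.60. This was the largest fold change among the 30 tested serpins.

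Neutrophils express Serpinb1a, and their markers were near the limit of detection. Of 9 such markers in the files, 3 could be tested and none was called. Mpo, which defines neutrophil granules, was at 0 in every library, and the summed level was 6.39 to 8.61 CPM with vehicle and 1.46 to 23.5 CPM with atractylodin, highest in atractylodin 3. S100a8 was at 2.69, 1.97 and 2.75 CPM with vehicle and at 1.69, 0 and 10.9 CPM with atractylodin, highest in atractylodin 3, and S100a9 at 1.61, 1.97 and 2.26 CPM against 1.89, 0.731 and 9.35 CPM. Retnlg, the third, went the other way in its estimate (log2 fold change -0.82, beside 0.84 for S100a8), at 3.77, 2.49 and 0.566 CPM with vehicle and 0.399, 0.418 and 2.25 CPM with atractylodin. Macrophage markers summed to 383 to 547 CPM against 314 to 472 CPM, with 10 of 12 estimates lower and none called. The part of either marker list in the Serpinb1a value was not tested. Of 10 tested granule and lysosomal proteases and caspases, the kind of enzyme that clade B serpins inhibit, none was called (median -0.03). The smallest p belonged to the cathepsin Ctsb (-0.18, edgeR adjusted p = 0.319) and to Casp1 (edgeR adjusted p = 0.349), and the most abundant, Ctsl, had a log2 fold change near 0 (0.02, edgeR adjusted p = 0.916).

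The other 4 clade B members did not pass. Serpinb8, an inhibitor of furin-like proteases, was at 2.69, 2.15 and 4.12 CPM against 1.49, 1.57 and 1.17 CPM, without overlap (log2 fold change -1.12 ± 0.44, edgeR adjusted p = 0.142). Serpinb6a, an inhibitor of cathepsin G, was at 16.7, 23.7 and 19.6 CPM against 18.2, 15.2 and 14.6 CPM, with overlap (-0.36 ± 0.17, edgeR adjusted p = 0.220). Serpinb9, the granzyme B inhibitor, and Serpinb6b had 1.08 to 6.46 CPM and edgeR adjusted p of 0.894 and 0.847.

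**Figure D4:**
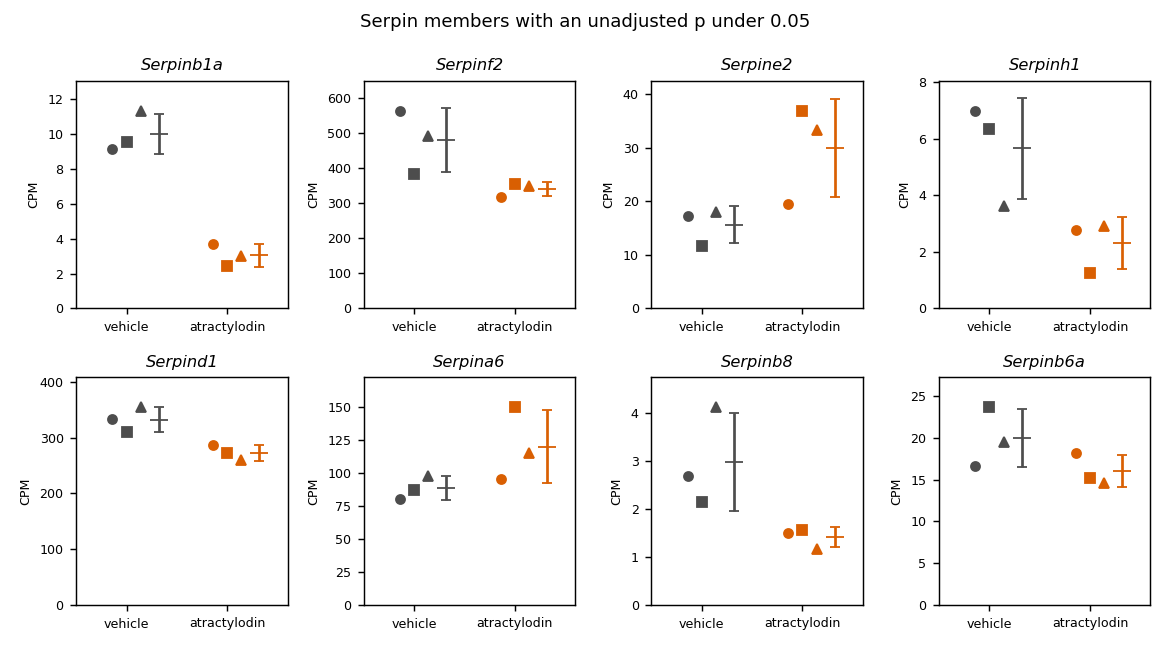
CPM per library (vertical axes) of the 8 serpins with an unadjusted p under 0.05, vehicle beside atractylodin, with mean ± SD (n = 3) to the right of the points. In Serpinb1a all atractylodin points lie at or below 3.69 CPM and all vehicle points at or above 9.15 CPM, while Serpina6 and Serpinb6a overlap.

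Of the remaining clade A serpins, Serpina12 (vaspin, an adipokine that inhibits kallikrein 7) was at 32.3, 30.7 and 19.1 CPM with vehicle and 17.3, 10.4 and 24.1 CPM with atractylodin. Adipocyte markers, 2 of 4 tested and neither called, summed to 35.1 to 97.9 CPM with vehicle and 24.9 to 42.2 CPM with atractylodin, with Adipoq at 0 throughout, and their part in the Serpina12 value was not tested. The Serpina12 estimate was -0.61 ± 0.35 (edgeR adjusted p = 0.386). Serpina11 was at 32.4 to 41.4 CPM over all libraries (edgeR adjusted p = 0.851).

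Among the 32 untested serpins, 12 had no count in any library and 20 had some, with at most 40 counts over the 6 libraries and 15 in any single library. They included 22 of the 27 clade B genes and both neuroserpin family genes. At these counts, differences were mostly not detectable. Serpine3, chosen after its values were seen, had 1, 15 and 10 counts with vehicle and 1, 1 and 0 with atractylodin, and it was called lower only when the filter on low counts was dropped (edgeR adjusted p = 0.0406).

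Atractylodin 3 was the highest of the 3 atractylodin libraries for 14 of the 30 tested serpins, beside 33.1% of all genes, and the highest of all 6 for 6 of 30, beside 15.6%. With a cutoff chosen after the values were seen, its CPM exceeded the mean of the other 2 atractylodin libraries by more than 1.5 times in 5 of the 21 serpins with a mean of at least 10 CPM (23.8%). Among all 7248 genes at that level, 185 (2.55%) did so. The 5 were Serpina3n (2.19 times), Serpina7 (1.96), Serpina10 (1.90), Serpina12 (1.73) and Serpina3c (1.65), while Serpina1e was at 0.533 times. Over all 21 the median ratio was 1.04, beside 1.00 for all genes.

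Other hepatic acute phase genes, many but not all of which cytokines such as interleukin-6 induce, were read in the same way. Of 19 tested, 10 exceeded that ratio in atractylodin 3. Saa1 was at 441, 480 and 489 CPM with vehicle, at 165 and 39.4 CPM in atractylodin 1 and 2, and at 830 CPM in atractylodin 3. Lcn2 was at 84.5, 106 and 71.7 CPM with vehicle, at 13.7 and 3.65 CPM in atractylodin 1 and 2, and at 73.2 CPM in atractylodin 3. None of the 19 was called (16 lower estimates, median -0.21); the smallest p belonged to Hpx (-0.48, edgeR adjusted p = 0.115) and Saa3 (-0.90, edgeR adjusted p = 0.182), and the most abundant, Ahsg, did not pass either (edgeR adjusted p = 0.757). The neutrophil markers S100a8 and S100a9 were also highest in atractylodin 3, while Retnlg was highest in vehicle 1, and their part in these values was not tested.

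**Figure D5:**
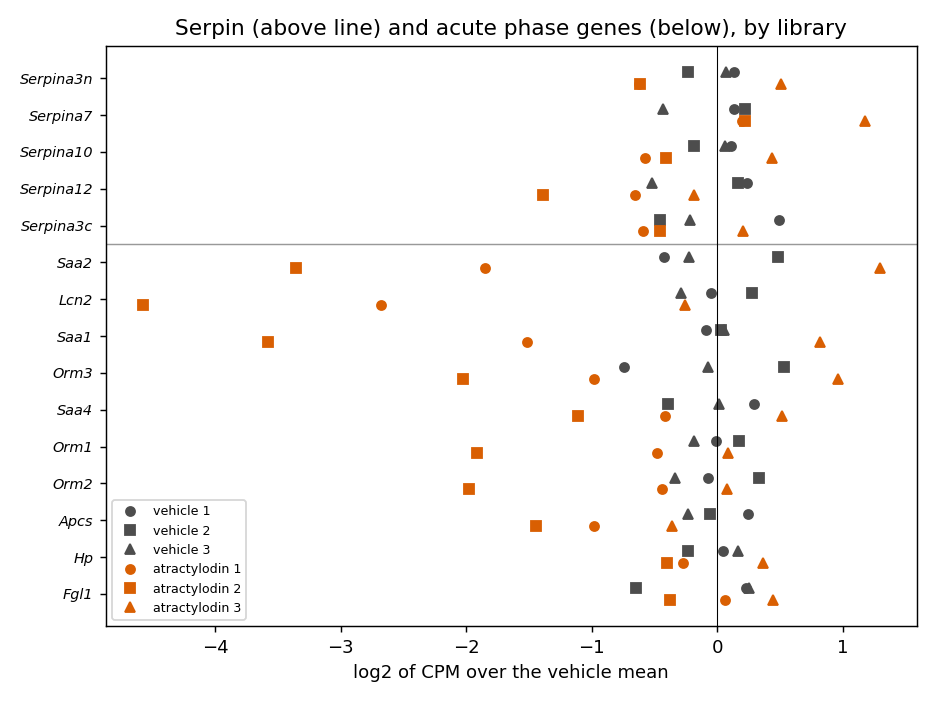
Log2 of CPM over the vehicle mean (horizontal axis) in each library for the 5 serpins named above (upper rows) and 10 of the 19 acute phase genes (lower rows). All rows were chosen for a ratio of atractylodin 3 to the mean of atractylodin 1 and 2 above 1.5. That atractylodin 3 lies to the right in each row thus largely follows from the choice. The ratio was 1.65 in Serpina3c, 2.19 in Serpina3n and 8.15 in Saa1.

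Proteases of clotting and fibrinolysis were then read in 1 list with cofactors, receptors and other inhibitors, not all of which serpins act on. Of 29 tested, 5 fell and 1 rose, with a median of -0.07, beside 3.33% of all genes called lower and 3.92% higher. Mug2, a murinoglobulin that traps many proteases, fell from 324, 298 and 283 CPM to 180, 188 and 191 CPM (log2 fold change -0.69, edgeR adjusted p = 0.00019). Mug2 has a close relative, Mug1, and whether the counting could split their reads was not tested. Cpb2, which protects fibrin from plasmin, fell from 369, 335 and 337 CPM to 236, 222 and 283 CPM (log2 fold change -0.49, edgeR adjusted p = 0.00612). Both held on leaving out each library in turn. F8 (-0.47, edgeR adjusted p = 0.0314) and Lrp1, a receptor that clears serpin-protease complexes (-0.38, edgeR adjusted p = 0.0320), were less firm. On leaving out each library in turn, F8 was called only without atractylodin 2, and Lrp1 only without vehicle 2 or atractylodin 3 (edgeR adjusted p otherwise up to 0.115 and 0.15). F11 (-0.58, edgeR adjusted p = 0.0336) was likewise called only without atractylodin 2 (edgeR adjusted p otherwise up to 0.115). The rise was in Plaur, the urokinase receptor, at 0, 0.258 and 0.485 CPM with vehicle and 1.69, 2.30 and 1.34 CPM with atractylodin, near the limit of detection (edgeR adjusted p = 0.0364, lost on leaving out any single library, up to 0.149). The most abundant gene, the fibrinogen chain Fgb, was at 9671, 5793 and 8386 CPM against 6179, 5136 and 11076 CPM (edgeR adjusted p = 0.923).

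Of 14 complement proteases and related genes, targets of Serping1 among them, none was called, with 11 lower estimates and a median of -0.22. With total-count scaling 2 were called lower, and with TMM scaling 1 was called lower on leaving out vehicle 2. C4b (-0.36, edgeR adjusted p = 0.0662) and C1s1 (-0.27, edgeR adjusted p = 0.0917) had the smallest p, and C3, the most abundant, had a log2 fold change near 0 (0.06, edgeR adjusted p = 0.785).

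Of 20 tested regulators of serpin genes, 2 rose and none fell (median -0.08). With total-count scaling 2 rose and 2 fell, and with TMM scaling 4 rose without atractylodin 3 and 1 without vehicle 2. Hnf4a, a transcription factor that maintains hepatocyte genes, rose from 321, 270 and 291 CPM to 462, 439 and 533 CPM. All atractylodin libraries were above all vehicle libraries, with means of 294 ± 25.7 and 478 ± 49.2 CPM (log2 fold change 0.71 ± 0.10, edgeR adjusted p = 0.000405), and the call held without any single library. Il6ra, the interleukin-6 receptor, rose from 37.1, 26.5 and 32.7 CPM to 42.4, 50.7 and 49.4 CPM (log2 fold change 0.61, edgeR adjusted p = 0.00958), a call lost without vehicle 2 (edgeR adjusted p = 0.0744). The most abundant regulator, Ppara, did not pass (0.30, edgeR adjusted p = 0.0593). Over all 7 lists of partner genes, 14 of 121 tested genes were called, 4 higher and 10 lower, with a median of -0.16, beside 7.25% called over all genes (3.92% higher and 3.33% lower). With total-count scaling 20 were called, 3 higher and 17 lower. With TMM scaling, the count was 8 without vehicle 1 and 9 without atractylodin 2.

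As a share of all counts in a library, serpins made up 4.499, 3.88 and 4.30% with vehicle and 4.29, 4.27 and 4.03% with atractylodin. The groups overlapped, with means of 4.22 ± 0.318% and 4.20 ± 0.140% and a difference of -0.0293 percentage points (exact two-sided permutation p = 0.8, where 3 libraries against 3 cannot go below 0.1). On TMM-scaled library sizes the difference was 0.207 percentage points (exact permutation p = 0.6). Without the Serpina1 and Serpina3 copies, the rest were at 0.429, 0.378 and 0.410% with vehicle and at 0.3505, 0.352 and 0.364% with atractylodin. These did not overlap (difference -0.0504 percentage points, exact permutation p = 0.1, the smallest possible), but on TMM-scaled sizes they did (exact permutation p = 0.3).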

How the data were processed

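Libraries were made from 500 ng of total liver RNA with a Lexogen QuantSeq kit, per the labels' protocols. The authors deposited 1 table of raw counts per gene symbol for each of the 6 samples. Bowtie2, bedtools and mm10 are named, without versions, in the submitters' processing notes. The gene annotation, the use of strand and the handling of reads that match several places are not given in the sources used here.

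From the deposited counts, edgeR 4.0.16 in R 4.3.3 (filterByExpr, TMM scaling, robust quasi-likelihood test, Benjamini-Hochberg adjustment over 12505 genes, threshold 0.05) compared 3 atractylodin with 3 vehicle libraries, with no covariates. The biological coefficient of variation was 15.0%. Repeated symbols (44) were kept as separate rows. No library was a copy of another. The Serpina1 and Serpina3 sums were fitted in place of their copies. The fit was tested on simulated data. Shares of counts were compared by exact permutation. Alternatives were DESeq2 1.42.0, limma-voom 3.58.1, other scalings and filters, thinning, a block for the replicate number and fits without each library; 2 were added after seeing the data (another denominator, and the pseudogene row as a member). Positions and transcripts came from GENCODE M21 and start regions from RefSeq (GRCm38.p6), read with Python 3.11.15 and Biopython 1.88. All 62 symbols matched 1 gene each.

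The serpin genes and all gene lists were chosen with earlier results of these data known. Values per library are given for serpins with an unadjusted p under 0.05, the 10 most abundant, the sums and serpins of known plasma or matrix roles. 1 tested serpin enters the fit and the counts over all serpins but is not reported here. Of each list, the called genes (up to 4 by p, or the 2 smallest p) and the most abundant are named. Outside this rule, Serpina3m, Serpina3c, Serpina12, Serpina11, Serpine3, Col4a2, P4ha1, P4ha2, F11, Plaur, Spp1, Sox9, Epcam, Ass1, S100a8, S100a9, Retnlg, Saa1 and Lcn2 were named after their values were seen. Of the marker lists, T and NK cells (2 tested), mesothelium (0) and pancreas (1) were too thin to read, and endothelial markers (9 tested) had 1 higher and 1 lower call. The marker Tf was not analysed here.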

Additional observations from a re-analysis of the deposited data

How the results depend on the processing

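Serpins called numbered 2 in the main analysis and stayed within 1.5 times of that with DESeq2, limma-voom, RLE and upper quartile scaling, the stricter filter, thinning and the pseudogene row added. They numbered 5 with total-count scaling, 5 with total counts without serpin rows, 7 with no filter and 4 with the replicate block (2 higher, 2 lower). The replicate numbers gave no sign of pairing the libraries, but deviations from means of 3 libraries cannot exclude it. Same-numbered libraries correlated at -0.027, -0.089 and 0.022 in their deviations, and not every library correlated best with its own number. With the block 811 genes were called in place of 906. Leaving out each library gave 1 to 3 serpins called, with 1 without vehicle 1, vehicle 3 or atractylodin 2. All genes called numbered 527 after thinning to the shallowest library and 467 to 751 on leaving out each library (494 without vehicle 1, 467 without vehicle 3), and partner genes called numbered 23 with no filter, 9 after thinning and 8 to 15 on leaving out each library. The serpin share of counts differed by 0.207 percentage points on TMM-scaled sizes and by -0.204 to 0.108 on leaving out each library. The log2 fold change of Serpinb9 was 0.033 with limma-voom, and that of Serpina1b -0.0104 with total counts and -0.0108 without serpin rows in the total. On leaving out each library, estimates changed sign in the Serpina3 sum (-0.187 to 0.0266), Serpina11 (-0.153 to 0.00496), Serpina3c (-0.406 to 0.104), Serpina3k (-0.172 to 0.0271), Serpina3m (-0.238 to 0.124), Serpina3n (-0.613 to 0.0619), Serpina3f (-0.0211 to 0.431), Serpina3g (-0.750 to 0.103), Serpina3h (-1.28 to 0.0945), Serpina10 (-0.478 to 0.0910), Serpinb6b (-0.330 to 0.169), Serpinb9 (-0.490 to 0.146), Serpinf1 (-0.0766 to 0.0202) and Serping1 (-0.148 to 0.0166). The cause of these changes was not tested. The depth of vehicle 1, where 3 counts are 1.64 CPM, limits members of a few CPM.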

Other observations

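The row left out for its pseudogene suffix, Serpina4-ps1, was at 5.92, 5.49 and 6.79 CPM with vehicle and at 14.05, 14.4 and 10.3 CPM with atractylodin. Every atractylodin library was above every vehicle library, a 2.10-fold higher level (log2 fold change 1.07 ± 0.22, edgeR adjusted p = 0.00603).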
